A study of Canis lupus familiaris with 7 samples.

Results

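A set of 10 genes of autophagy was followed in the left ventricle of dogs on a low-salt diet and of control dogs. They are ATG101, ATG13, ULK1 and RB1CC1, which start autophagy, BECN1, which acts next, ATG5 and ATG7, which conjugate the LC3 proteins to membrane, the LC3 proteins MAP1LC3B and GABARAPL1, and the cargo receptor SQSTM1. A transcript is read on the array by a probe set, a group of short probes, and every probe set annotated to 1 of these 10 symbols alone was taken. The 10 genes are among 15115 named on the array, and they have 29 of its 42924 probe sets, leaving out the maker's controls. Of the 29, 25 were bright enough to enter the tests. The genes were chosen by the same comparison that is described here: 1 ATG101 probe set was known to be far lower in low salt, and the others are its partners in the pathway. Their values are therefore a description, and no p-value is printed for them. How many of them passed a threshold is counted later beside the share over the array, and nothing is read from those counts.

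The low-salt group held 4 arrays (numbered 1 to 4) of heart RNA from adult male mongrel dogs fed 0.5% sodium chloride for 2 weeks. The control group held 3 arrays (numbered 1, 3 and 4) of heart RNA from male dogs, and no source used here gives their diet. Each array was a 1-colour Affymetrix canine array hybridised with total RNA of the left ventricle. Per the design text 10 dogs were fed this diet, yet 4 low-salt and 3 control dogs are counted in the comparison. It does not say how the 4 were picked or whether RNA was pooled, so spreads and p-values measure only the differences between these samples, which may be technical. In whole tissue, fewer cells of a type and less RNA per cell cannot be told apart.

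Autophagy encloses part of the cytoplasm in a double membrane and delivers it to lysosomes for breakdown. The kinase ULK1 works in a complex with ATG13, RB1CC1 (also called FIP200) and ATG101. This complex and the lipid kinase complex that holds BECN1 start the membrane. ATG7, an activating enzyme, and ATG5, joined to ATG12, attach LC3 and GABARAP proteins to it, and receptors such as SQSTM1 (p62) bring in tagged cargo. The pathway is known in heart muscle for the turnover of mitochondria and proteins, above all under fasting and stress.

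Values are given as the intensity the authors deposited and as log2(intensity + 16) after quantile normalization, and a change is the low-salt mean minus the control mean of the second, which understates those of dim probe sets. Group values are means ± SD and the error of a change is its SE from limma. Arrays carry no read depth, so their number limits the precision. Control 4 and low-salt 3 stood apart, with median intensities of 44.2 in low-salt 3 and 51.3 in control 4, against 19.3 to 39.6 on the other 5 arrays. Their deviations from their group means correlated at 0.434 over the tested probe sets, so results are also given without them where they matter. The labelled tissue matched its markers: 10 of 11 cardiomyocyte genes were named on the array and all 10 were bright enough to be tested. Their summed intensity, over the brightest probe set of each, was 78557 to 107370 in low salt and 80490 to 126411 in controls. The summed levels overlapped between the groups for all 10 cell type lists, atrial, endothelial, fibroblast and macrophage genes among them. The ratio of the GAPDH 3' to 5' control probe sets, a sign of RNA integrity, was 2.03 to 2.41 in low salt and 2.43 to 2.78 in controls, without overlap. A second GAPDH pair gave 14.46 to 22.58 in low salt and 22.73 to 40.88 in controls, the actin ratios overlapped, and the part of RNA quality in the results below was not tested.

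ATG101 binds ATG13 and steadies the ULK1 complex, and its 3 probe sets gave 3 different pictures. The probe set bright only in controls had intensities of 23.0, 2.41, 5.11 and 2.58 on low-salt arrays 1, 2, 3 and 4, against 6398, 1474 and 1152 on control arrays 1, 3 and 4. Low-salt 2, 3 and 4 lay near the bottom of the range, low-salt 1 lay close to its array's median of 21.8, and all control arrays were bright, control 1 above all. Its normalized values were 4.65 ± 0.65 (SD, n = 4) in low salt and 11.17 ± 1.24 (SD, n = 3) in controls, a change of -6.52 ± 0.49 (SE), or 91.6-fold lower. Without control 1 the change was -5.83, and without control 4 and low-salt 3 it was -6.97. With 3 of the 4 low-salt values near 0, the size depends on the offset: it was -8.20 with an offset of 1 and -4.98 with an offset of 64.

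The other ATG101 probe sets did not show that gap. One of middle signal had intensities of 317, 209, 326 and 107 on low-salt arrays 1, 2, 3 and 4, against 328, 370 and 340 on control arrays 1, 3 and 4. Low-salt 1 and 3 were close to the controls and low-salt 4 was the lowest. After normalization the values were 7.94 ± 0.61 (SD, n = 4) in low salt and 8.52 ± 0.09 (SD, n = 3) in controls, a change of -0.58 ± 0.30 (SE) with overlapping groups. As deposited its groups just missed each other, with 326 the highest low-salt and 328 the lowest control intensity. The last was dim, at 21.3, 17.8, 11.3 and 55.0 in low salt and 34.3, 13.1 and 32.1 in controls, and the groups overlapped. Its change was 0.35 ± 0.44 (SE), and it turned to -0.06 with the values as deposited.

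The 3 ATG101 probe sets did not follow each other from array to array either. Over the 7 arrays Pearson's r was 0.58 between the probe set bright only in controls and the one of middle signal, -0.24 between it and the dim one, and -0.85 between the 2 others, as descriptions that share the same arrays. The large difference was thus seen in 1 of the 3 probe sets annotated to ATG101, and the files do not say which part of the transcript each one reads. On the array 1 of 42924 probe sets (0.00233%), this one, had all control intensities at 1000 or above and all low-salt intensities at 50 or below. These limits were set after its values were seen and so favour it, and the count does not measure how rare such a pattern is. The reverse pattern was found in 0 of 42924.

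**Figure D1:**
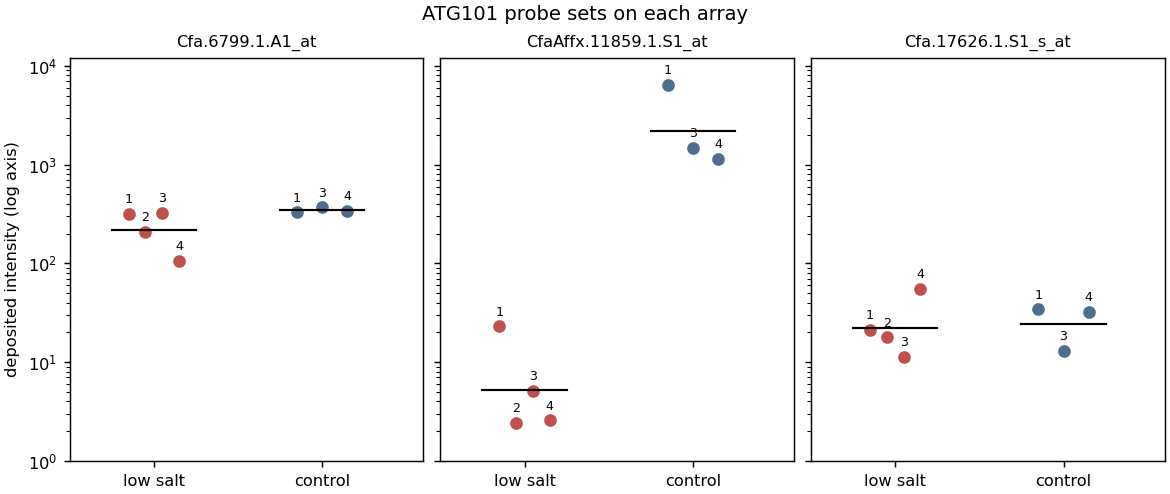
Deposited intensity (log axis) of the 3 ATG101 probe sets on each of the 4 low-salt arrays (red) and 3 control arrays (blue), with replicate numbers beside the points and the geometric mean of each group as a line. One probe set has low-salt values of 2.41 to 23.0 and control values of 1152 to 6398. The one of middle signal has 107 to 326 in low salt and 328 to 370 in controls, just apart, and the groups of the dim one overlap.

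The other members of the ULK1 complex gave smaller and mixed differences. ATG13, the subunit that links ULK1 to RB1CC1, had intensities of 91.2, 94.2, 139 and 67.2 on the low-salt arrays and 99.2, 45.0 and 15.1 on control arrays 1, 3 and 4 for its brightest probe set. Control 4 was the lowest and control 1 was level with the low-salt arrays as deposited, while after normalization the groups did not overlap, with 6.68 the lowest low-salt and 6.64 the highest control value. The change was 1.18 ± 0.40 (SE), or 2.27-fold, and it was 0.61 without control 4 and low-salt 3. The 2 other ATG13 probe sets were too dim to be tested, with intensities from 0.765 to 62.8 in low salt and 1.88 to 12.3 in controls, and differed by 0.37 and 0.76.

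ULK1, the kinase itself, was read only by dim probe sets. One had 8.84, 43.0, 30.2 and 33.9 on the low-salt arrays, against 6.93, 29.2 and 146 on control arrays 1, 3 and 4. The controls spanned the whole range of the low-salt group and went beyond it on both sides. The change was -0.12 ± 0.55 (SE), and that of the other probe set 0.19 ± 0.45 (SE). Neither sign was stable: the first became 0.71 without control 4 and low-salt 3, and the second -0.15 with the values as deposited. With SEs near 0.5, a change of that size was not detectable for ULK1 with these 7 arrays.

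RB1CC1, the large scaffold of the complex, gave near-equal values in the groups. Its brightest probe set had 799, 752, 729 and 777 on the low-salt arrays and 798, 729 and 734 on the control arrays. The 2 groups covered the same range, and the change was -0.10 ± 0.17 (SE). The next 3 probe sets differed by -0.11, -0.06 and 0.04, each by less than its SE. The dimmest differed by -0.78 ± 0.43 (SE), with 26.4 to 35.2 in low salt and 52.1 to 185 in controls. Its groups were apart as deposited and overlapped after normalization, and control 1 was its highest value.

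**Figure D2:**
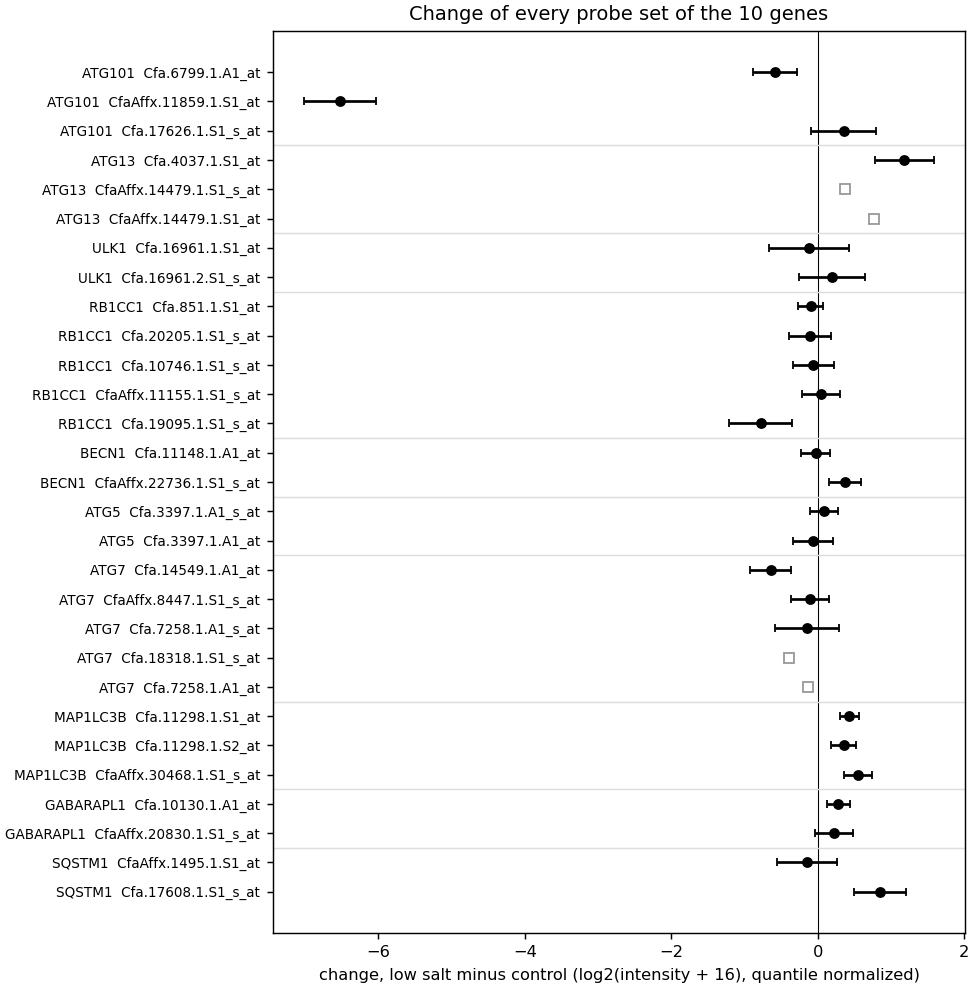
Change (low salt minus control, log2 of intensity + 16 after quantile normalization) of all 29 probe sets of the 10 genes, grouped by gene, with filled circles and SE bars for the 25 tested ones and open squares for the 4 too dim to be tested. One ATG101 probe set lies at -6.52, and the other 28 lie between -0.78 and 1.18.

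BECN1 (beclin 1), the regulatory subunit of the lipid kinase complex that acts after ULK1, had overlapping groups in both probe sets. The brighter had 3376, 4150, 1932 and 4098 on the low-salt arrays and 3125, 3917 and 2317 on the control arrays. The lowest value of each group was on the array that stood apart, low-salt 3 and control 4. The change was -0.03 ± 0.20 (SE), and the other probe set differed by 0.37 ± 0.22 (SE), with 794 to 1484 in low salt and 541 to 918 in controls.

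Of the conjugation enzymes, ATG5 lay near 0 and ATG7 below it. The brighter ATG5 probe set had 506, 627, 426 and 551 in low salt and 464, 461 and 465 in controls, so the controls fell inside the low-salt range. Its change was 0.08 ± 0.19 (SE), and that of the other ATG5 probe set -0.07 ± 0.27 (SE). All 5 ATG7 probe sets had changes below 0, from -0.64 to -0.11, but 2 were too dim to be tested and the groups overlapped in all 5. The brightest had 184, 107, 182 and 80.4 on the low-salt arrays and 266, 257 and 190 on the control arrays, a change of -0.64 ± 0.28 (SE). Low-salt 4 was its lowest value, as in the ATG101 probe set of middle signal. As deposited its groups did not overlap, and its change stayed below 0 in all 16 alternatives, some of which leave a change as it is. Of the other tested ones, that at -0.11 turned to 0.10 with array medians set equal, and that at -0.15 to 0.14 without control 1 and 0.12 without low-salt 3. An untested one, at -0.13, turned to 0.29 without control 1.

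MAP1LC3B, which encodes the LC3B protein that is fixed to the growing membrane, had higher values in low salt in all 3 of its probe sets. The brightest had 3727, 4129, 2797 and 3544 on low-salt arrays 1, 2, 3 and 4, against 2142, 2557 and 2333 on control arrays 1, 3 and 4. Every low-salt array was above every control array, low-salt 3 being the nearest to them. The change was 0.43 ± 0.13 (SE), or 1.34-fold, with 11.72 ± 0.12 (SD, n = 4) in low salt and 11.30 ± 0.08 (SD, n = 3) in controls. The dimmest had 622, 972, 693 and 733 in low salt and 456, 493 and 454 in controls, again without overlap, a change of 0.55 ± 0.19 (SE), or 1.47-fold. The remaining one differed by 0.35 ± 0.17 (SE), and low-salt 1 and 3 fell just below control 4 after normalization but not as deposited, where 1471 was its lowest low-salt and 1424 its highest control intensity. The 3 probe sets moved together over the 7 arrays, with Pearson's r from 0.70 to 0.89, a spread that includes the group difference.

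GABARAPL1, a relative of LC3 in the GABARAP branch, leaned the same way by less. Its brighter probe set had 2219, 2523, 1849 and 1767 on the low-salt arrays, against 1512, 1847 and 1282 on the control arrays. Low-salt 4 fell below control 3 and the 3 others lay above all controls, for a change of 0.28 ± 0.16 (SE). The other had 497, 624, 380 and 250 in low salt and 350, 354 and 332 in controls, a change of 0.22 ± 0.26 (SE). Its low-salt arrays spread widely, with low-salt 4 below the controls and the others above. Over MAP1LC3B and GABARAPL1 together 5 of 5 probe sets had a change above 0, also in each of the 16 alternative settings, with a median of 0.35, where 53.8% of all tested probe sets were above 0 and their median was 0.04. Without control 4 and low-salt 3 the median of the 5 was 0.50.

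**Figure D3:**
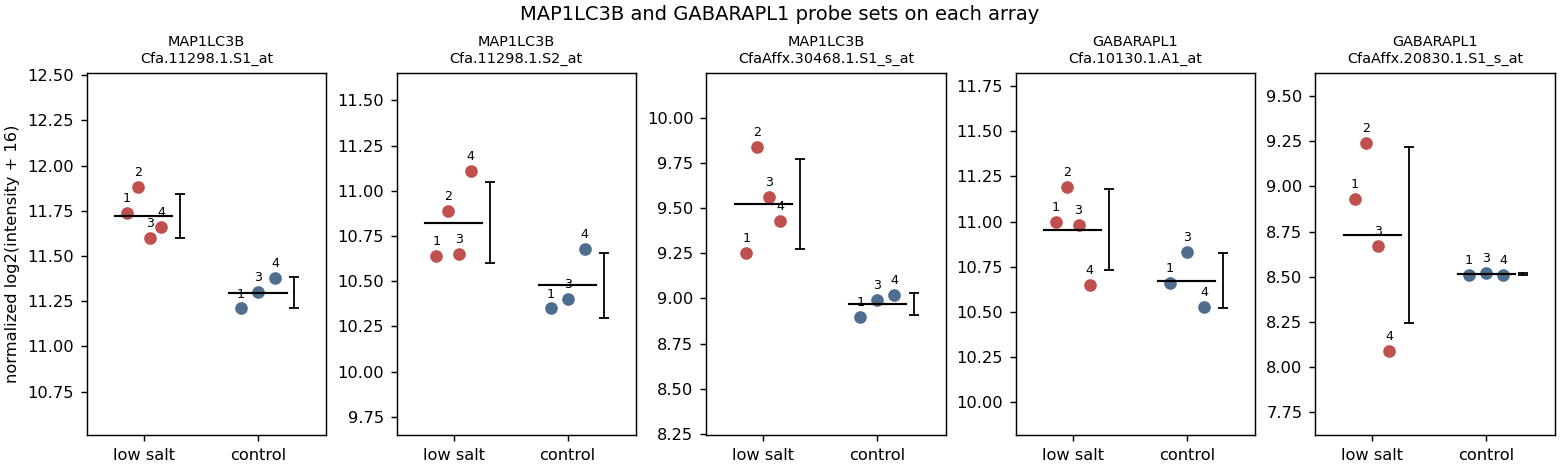
Normalized log2(intensity + 16) of the 3 MAP1LC3B and 2 GABARAPL1 probe sets on each low-salt (red) and control (blue) array, with replicate numbers, group means as lines and SD as bars; each panel spans the same height. The low-salt arrays lie above the controls without overlap in 2 of the 3 MAP1LC3B panels, and overlap them in the other 3 panels.

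SQSTM1, the receptor that binds both ubiquitin and LC3 and is itself degraded by autophagy, gave opposite signs in its 2 probe sets. The brighter had 62.3, 57.8, 123 and 40.4 on the low-salt arrays and 42.8, 89.5 and 196 on control arrays 1, 3 and 4, with overlap and a change of -0.15 ± 0.41 (SE). Its highest values in each group were on low-salt 3 and control 4, and without those arrays the change was 0.21. The other had 27.4, 27.5, 31.2 and 15.8 in low salt and 18.9, 6.58 and 14.1 in controls, all of them dim. After normalization its groups did not overlap and the change was 0.85 ± 0.35 (SE), while it was 0.36 with an offset of 64 and 1.58 with an offset of 1.

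Counted together, 1 of the 25 tested probe sets of the 10 genes passed limma's test at an adjusted p of 0.05, the ATG101 one for which the genes were chosen. Over the array 99 of 28616 passed (0.346%), 0.0384% higher and 0.308% lower. At an unadjusted p under 0.05 there were 6 of the 25, against 11.0% over the array. A fold of 2 or more was found in 1 lower (ATG101), against 2.84%, and in 1 higher (ATG13), against 1.76%. Both of these passed the design text's threshold, which joins that fold to an unadjusted p of 0.05, by limma, as 4.4% of all tested probe sets did, and by the methods' t-test the ATG101 one passed alone, as 3.04% of all did. For 4 of the 29 all low-salt values lay above all controls (2 of MAP1LC3B, 1 of ATG13 and 1 of SQSTM1), where 5.13% of tested probe sets showed it, and for 1 they lay below, where 5.68% did. Since the comparison was used in choosing the genes, nothing is read from these counts. The median change of the 25 was -0.03, with 12 above 0 and 13 below, beside 0.04 over all tested probe sets.

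The changes depended on the scaling between arrays. The median change of all tested probe sets was 0.04 after quantile normalization, but -0.18 as deposited and 0.26 once the array medians were made equal. The median of the tested members was -0.03, -0.05 and 0.38 in the same order. The 2 brightest RB1CC1 probe sets, near 0 by quantile normalization, were at 0.45 and 0.38 with equal medians. MAP1LC3B and GABARAPL1 ran from 0.25 to 0.65 as deposited and from 0.69 to 1.09 with equal medians, above the median of all tested probe sets in both. Other bright probe sets rose with equal medians too. BECN1 was then at 0.52 and 0.93 and the brighter ATG5 probe set at 0.60, beside 0.86 and 0.69 for GABARAPL1. As deposited, the groups of all 3 MAP1LC3B probe sets lay apart on the high side, as 2.87% of all tested probe sets did. On the low side 5 did, 2 each of ATG101 and ATG7 and 1 of RB1CC1, against 9.78% of all.

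**Figure D4:**
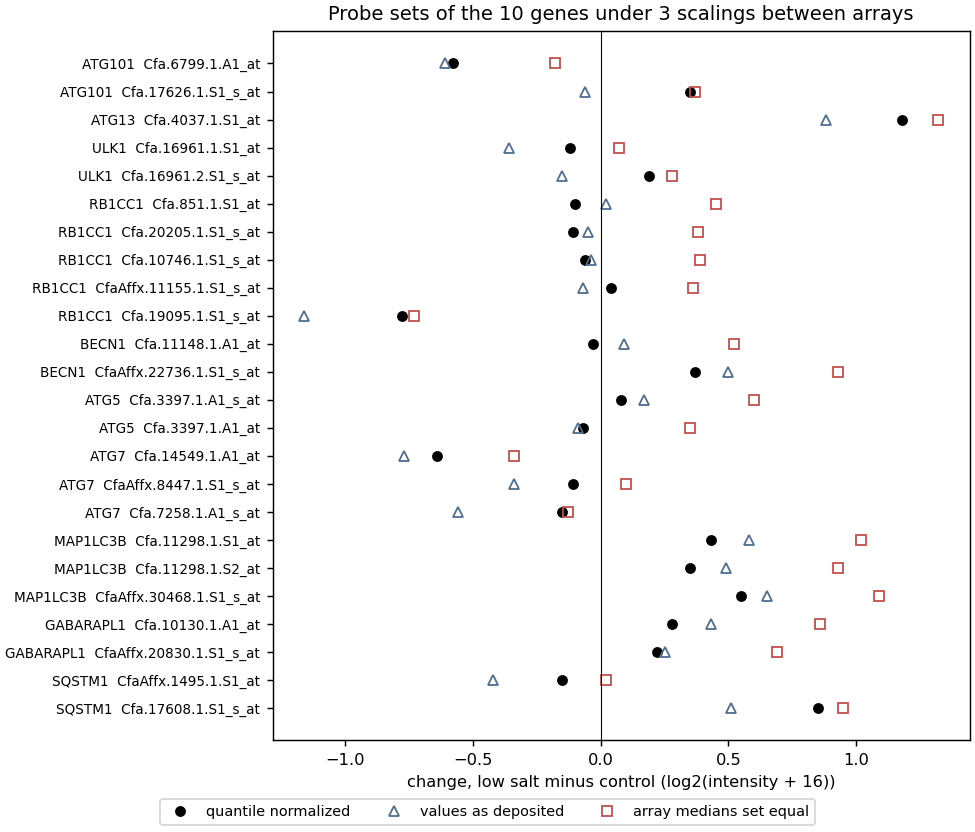
Change (low salt minus control, log2 of intensity + 16) of the tested probe sets of the 10 genes other than the ATG101 one at -6.52, after quantile normalization (filled circles), as deposited (triangles) and after setting the array medians equal (squares). MAP1LC3B and GABARAPL1 lie right of 0 in all 3, while RB1CC1, BECN1, ULK1 and ATG5 have probe sets on both sides.

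The wider pathway was read through 8 lists of autophagy genes drawn up from general knowledge, with the 10 genes left out: 94 of 100 genes were named on the array, by 222 probe sets, of which 163 were tested. By limma 0 of the 163 passed an adjusted p of 0.05, where 0.346% of all tested probe sets did. At an unadjusted p under 0.05, 16 of the 163 were higher, where 5.27% of all tested were, and 4 of the 163 were lower, where 5.78% were. The methods' t-test also passed 0 of the 163 after adjustment, where 0.014% of all did. Unadjusted, it gave 11 of the 163 higher, where 4.96% of all were, and 4 lower, where 5.08% were. Changes above 0 were found for 112 of 163, or 68.7%, against 53.8% of all tested, with a median of 0.17. This share was 53.0% against 35.6% as deposited and 79.9% against 68.3% with equal medians.

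Genes of autophagosome fusion and the lysosome lay mostly above 0. Of 42 tested probe sets 36 (85.7%) had a change above 0, against 53.8% of all tested, and the median change was 0.31. At an unadjusted p under 0.05 by limma 5 were higher, where 5.27% of all tested were, and 1 was lower, where 5.78% were. LAMP2, a lysosomal membrane protein whose loss causes a heart muscle disease in humans, differed by 1.12 ± 0.25 (SE, limma adjusted p = 0.0847) in its probe set of smallest p, with 8.22 ± 0.23 (SD, n = 4) in low salt and 7.10 ± 0.25 (SD, n = 3) in controls, without overlap. Its 3 other probe sets differed by 0.34, 0.65 and 0.23. LAMP1, its close relative, differed by 0.82 ± 0.29 (SE, limma adjusted p = 0.34) in a probe set with a median intensity of 90.8 in low salt and 60.8 in controls. Its other probe set was far brighter, at 5152 and 4873, and differed by -0.01 ± 0.13 (SE). The protease cathepsin D (CTSD) differed by 0.56 ± 0.21 (SE, limma adjusted p = 0.346), and by 0.07 in its other probe set, which was too dim to be tested. As deposited 25 of the 42 (59.5%) were above 0, against 35.6% of all tested, and with equal medians 38 (90.5%), against 68.3%. Without control 4 and low-salt 3 it was 34 of 42 (81.0%), against 54.1%. Macrophages are rich in lysosomes, and the summed intensity of 5 macrophage markers was 701 to 1115 in low salt and 611 to 1045 in controls, with 4 of the 5 above 0 in change. Their part in these values was not tested.

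**Figure D5:**
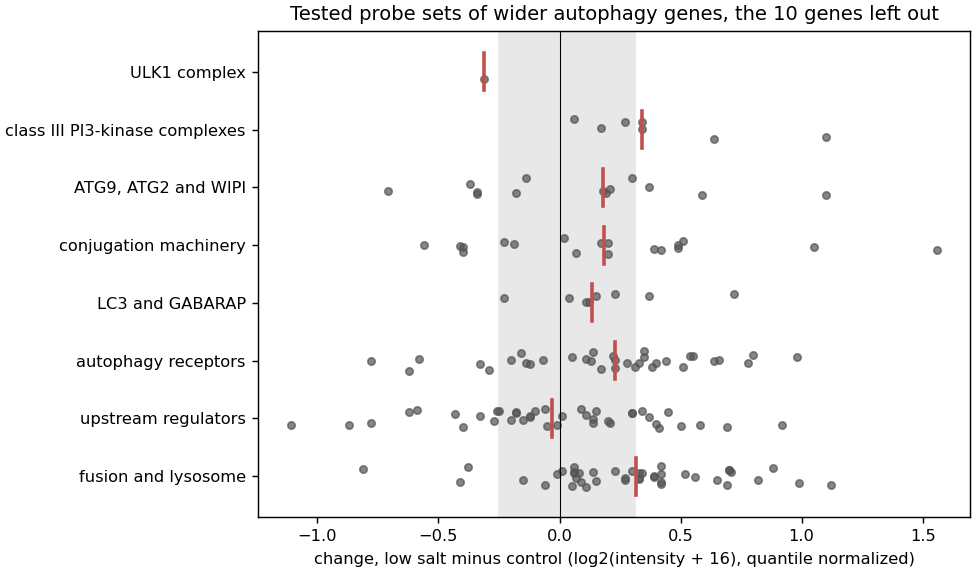
Change (low salt minus control, log2 of intensity + 16 after quantile normalization) of the 163 tested probe sets of wider autophagy genes by list, with the list median as a red line and the quartiles of all tested probe sets (-0.25 to 0.31) as a grey band. The fusion and lysosome list has its median at 0.31 and the list of upstream regulators at -0.03.

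The rest of the LC3 family and its processing enzymes stood next to MAP1LC3B and GABARAPL1. Of the 13 tested probe sets of the whole family, those 2 genes included, 12 had a change above 0, against 53.8% of all tested. As deposited 11 of the 13 did, against 35.6%. Those 2 genes were chosen with this comparison known. Without them it was 7 of 8 after quantile normalization, from 3 genes, so these are not all separate cases. MAP1LC3A differed by 0.72 ± 0.24 (SE, limma adjusted p = 0.319) in 1 probe set and by 0.12, -0.23 and 0.37 in the others, GABARAPL2 by 0.23 (limma adjusted p = 0.561) and 0.15, and GABARAP by 0.11 (limma adjusted p = 0.853) and 0.04. The MAP1LC3A probe set at 0.12 ± 0.11 (SE) was its brightest, with a median intensity of 9758 in low salt and 9929 in controls. The one at 0.72 had 946 and 521. In the conjugation list 12 of 18 tested probe sets had a change above 0, against 53.8% of all tested. ATG4D, a protease that trims LC3 and GABARAP proteins, held all 3 of the 18 that were higher at an unadjusted p under 0.05 by limma. Of all tested probe sets 5.27% were. The 3 belong to 1 gene and are not separate cases. The 3 ATG4D probe sets differed by 1.56 ± 0.51 (SE, limma adjusted p = 0.296), 1.05 and 0.49. The first had intensities of 63.6, 98.0, 17.6 and 132 on low-salt arrays 1 to 4, against 26.6, 7.68 and 19.4 on control arrays 1, 3 and 4. Low-salt 3 fell among the controls, and without it the change was 2.11 with a limma adjusted p of 0.0258, where 90 of 28616 probe sets passed 0.05. Without control 4 as well the change was 2.10, with a limma adjusted p of 0.0133, where 377 of 28616 passed. Leaving out the lowest low-salt value favours the difference, and leaving out both arrays was chosen after seeing the data. With all 7 arrays this probe set did not pass. ATG4A, a related protease, differed by 0.51 (limma adjusted p = 0.552), and by -0.19, 0.20 and 0.20 in its other probe sets. ATG3, which passes LC3 to its lipid, differed by 0.49 (limma adjusted p = 0.554), and by 0.42 and 0.17 in the others.

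Among the partners of BECN1 7 of 7 tested probe sets had a change above 0, and among the ATG9, ATG2 and WIPI genes of lipid transfer 7 of 13. Of all tested probe sets 53.8% had. The 7 of 7 belong to 4 genes and are not separate cases, and no count under the other scalings is given for these 2 lists. PIK3C3, the lipid kinase that BECN1 regulates, differed by 1.10 ± 0.35 (SE, limma adjusted p = 0.294) and by 0.64 in its other probe set. The first was dim, with a median intensity of 26.3 in low salt and 6.0 in controls. Its groups did not overlap after normalization but did as deposited, with 13.7 the lowest low-salt and 18.4 the highest control intensity. PIK3R4 and SH3GLB1 of the same list differed by 0.34 and 0.17 (limma adjusted p = 0.716 and 0.775), and their other probe sets by 0.34 and 0.48 for PIK3R4 and 0.06 for SH3GLB1. The PIK3R4 probe set at 0.48 was too dim to be tested. WDR45 and WIPI2 bind the lipid that PIK3C3 makes. WDR45 differed by 0.59 ± 0.19 (SE, limma adjusted p = 0.301) and by 0.37 in its other probe set, and WIPI2 by 1.10 ± 0.38 (SE, limma adjusted p = 0.321) and 0.30. The first WIPI2 probe set was dim, with a median intensity of 51.5 in low salt and 19.8 in controls, and its groups overlapped. ATG9A, a membrane protein carried in vesicles, differed by -0.71 (limma adjusted p = 0.513) in its only tested probe set. Its 3 others were too dim to be tested, at 0.44, -0.01 and -0.18. ULK2, the relative of ULK1, differed by -0.31 ± 0.35 (SE, limma adjusted p = 0.792).

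Of the receptors other than SQSTM1, 24 of 34 tested probe sets had a change above 0, against 53.8% of all tested, with a median of 0.23. NCOA4, which brings ferritin to autophagy, differed by 0.98 ± 0.30 (SE, limma adjusted p = 0.267) without overlap in 1 probe set, and by 0.35 and -0.07 in the others. The first was dim, with a median intensity of 45.6 in low salt and 26.5 in controls. CALCOCO2, which binds ubiquitin-tagged cargo, differed by 0.31 ± 0.13 (SE, limma adjusted p = 0.395) without overlap, and by 0.38 and 0.40. NBR1, a receptor that resembles SQSTM1, differed by -0.78 ± 0.31 (SE, limma adjusted p = 0.388), while its other probe sets ran from -0.58 to 0.64. Of the upstream regulators 19 of 40 were above 0, against the same 53.8%, with a median of -0.03. BCL2L1, which holds BECN1 back, differed by -1.11 ± 0.41 (SE, limma adjusted p = 0.35) in a dim probe set, with a median intensity of 7.65 in low salt and 47.7 in controls, and by -0.12 in the other. SESN1, a stress-induced inhibitor of MTOR signalling, differed by 0.92 (limma adjusted p = 0.365), and its other probe sets by -0.17, 0.14, 0.14 and 0.40. The SESN1 probe set at -0.17 was too dim to be tested. MTOR, the kinase that restrains ULK1, differed by -0.87 ± 0.39 (SE, limma adjusted p = 0.437). That probe set was dim too, with a median intensity of 9.63 in low salt and 48.9 in controls, and the 6 others ran from -0.83 to 0.30. The MTOR probe set at -0.83 was too dim to be tested.

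The probe sets most like the ATG101 one that was bright only in controls, over the 7 arrays, belonged to EIF4B, OR4H12B, RBBP6, MMP2 and EPB41L2, with Pearson's r of 0.993, 0.992, 0.989, 0.988 and 0.988. All 5 were lower in low salt without overlap, which such an r nearly requires, but by much less, with changes of -0.85, -1.58, -0.47, -1.32 and -2.59. Other tested probe sets of EIF4B differed by 0.12 and 0.15, those of EPB41L2 by -0.26, 0.03 and 0.27, and those of RBBP6 by -0.36 to 0.28. For MMP2, a matrix-degrading enzyme, another probe set went the other way, by 1.37 without overlap, and the remaining one differed by 0.63.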

How the data were processed

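RNA from left ventricle was isolated with Trizol, biotin-labelled and hybridised to 1-colour canine arrays, per the labels' protocols. The authors deposited 1 linear intensity per probe set, made with the maker's program GCOS per the submitters' processing notes. No source used here gives its version or how probes were summarised. Each array had a 2% trimmed mean of 150 to 150.1, so the arrays had been scaled before deposit, but their medians lay up to 0.93 apart in log2. Groups and numbers were taken from the sample titles.

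From these, log2(intensity + 16) was computed and quantile normalized. The 111 control probe sets and the third of the other 42924 with the lowest mean (below 16.1 in intensity) were left out of the tests. The other 28616 were tested with limma 3.58.1 in R 4.3.3 (lmFit, eBayes with a mean-variance trend), low salt against control without covariates, with Benjamini-Hochberg adjustment. Names came from the platform annotation: 29254 have 1 symbol, 439 several and 13231 none, and 27680 gene numbers were found in a table of dog assembly UU_Cfam_GSD_1.0, with 0 symbols changed. The genes, lists, tests and the naming rule were chosen with earlier results of these data known. The rule names all 10 genes with every probe set, for each wider list up to 3 genes of smallest p, and the 5 genes most like the ATG101 probe set.

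Alternatives were other offsets, scalings and filters, no trend, array weights, the methods' t-test, a replicate block, each array left out, the brightest probe set per gene and, chosen after seeing the data, control 4 and low-salt 3 left out together. Replicate numbers 1, 3 and 4 occur in both groups, but the deviations of same-numbered arrays correlated at 0.074, -0.264 and -0.18, so they were not taken as pairs.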

Additional observations from a re-analysis of the deposited data

Results flagged for a closer look

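The ATG101 probe set bright only in controls had 1 low-salt array far from the other 3. Low-salt 1 stood at 5.62 on the normalized scale (intensity 23.0), while low-salt 2, 3 and 4 lay between 4.27 and 4.38. Its gap to the nearest was 0.912 of the group's range. The 3 others had intensities of 2.41 to 5.11, which the offset of 16 draws together, and the genes were chosen by this probe set, so the gap is a description. Without that array the change was -6.80. It was 1 such gap past the 95% limit of Dixon's rule among the low-salt groups of 29 probe sets, and chance gives about 1 in 20.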

How the results depend on the processing

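The 99 probe sets past an adjusted p of 0.05 became 39 with an offset of 1, 27 with no filter, 19 with no mean-variance trend and 4 by the methods' t-test, but 165 with the values as deposited, 177 with array weights and 377 without control 4 and low-salt 3. With array medians set equal the 11 higher and 88 lower became 33 and 106. With 1 array left out the count ran from 21 (without control 1 or low-salt 4) to 290 (without control 4), and it was 41 without control 3, 24 without low-salt 1 and 26 without low-salt 2. With the replicate block it was 28, the ATG101 change was -6.36 and 0 wider autophagy probe sets passed; this fit also leaves out low-salt 2. The wider autophagy count stayed at 0 in every alternative but 2: it was 1 (ATG4D) without low-salt 3, so 0 to 1 with 1 array left out, and 1 without control 4 and low-salt 3. The change of the ATG101 probe set was -8.20 with an offset of 1 and -4.98 with an offset of 64, by their construction with 3 of 4 low-salt values near 0, and -7.00 to -5.83 with 1 array left out. Each member probe set was recomputed under 16 alternatives, 464 values in all. The filters leave a change as it is and the replicate block repeats the change without low-salt 2, so the 464 are not all separate checks. Of the 464, 24 moved by more than the spread between replicates and 41 changed sign. Of the 25 tested probe sets 13 kept their sign throughout, among them all 5 of MAP1LC3B and GABARAPL1. Other causes of these shifts were not tested. Probe sets below about 16 in intensity, such as 4 of the 29, could not be ordered.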

Other observations

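In the gene table of assembly UU_Cfam_GSD_1.0, used for order only, the genes next to ATG101 are NR4A1 and SMIM41. NR4A1, an immediate early transcription factor, had a tested probe set with a change of -0.23 ± 0.31 (SE) and a dimmer one at 0.46, with overlapping groups in both. SMIM41 had 0 named probe sets. A little farther off, KRT80 differed by 0.13 and 0.27 and KRT7 by 0.01 and 0.72, and ACVR1B by -0.14, and the pseudogene LOC486533 by -1.23 ± 0.50 (SE), all with overlapping groups. The KRT80 and ACVR1B probe sets were too dim to be tested. TAMALIN and LOC119866360 had 0 named probe sets. These neighbours were looked up by position after the ATG101 values were seen.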
